A study of Mus musculus with 12 samples.

Results

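The 6 genes Bcl6, Mybl1, S1pr2, Mef2b, Rgs13 and Gcsam, grouped here as germinal centre B cell regulators, were followed in lymph node cells, 6 of the 32285 genes listed in every library. All 6 were found by symbol. Mybl1 in B cells led to their choice, so its values in B cells are given as a description without a test. The other members were counted in the same cells, and their values there are no independent support for it. UMIs, the molecules counted by their tags, were summed over cells, and a level is the number of UMIs of a gene per 1000000 UMIs of the class of cells in that library (CPM).

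Germinal centres are transient structures of lymph node follicles in which activated B cells divide, mutate their antibody genes and are selected with help from follicular T cells. Bcl6 is the transcriptional repressor that B cells need to enter and stay in this state, and follicular helper T cells need it too. The other members are best known as genes of these B cells: Mybl1 is a transcription factor of the Myb family, Mef2b is a transcription factor that activates Bcl6, S1pr2 is a sphingosine 1-phosphate receptor that holds the cells in the follicle, Rgs13 damps signalling by chemokine receptors, and Gcsam is a signalling adaptor that limits B cell movement.

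The mice were C57BL/6, aged 7 to 10 weeks, carried ATG12 fl/fl and were labelled positive or negative for CDH5 CreER, a tamoxifen-activated Cre driven by a promoter of endothelial cells. Mice of both labels received tamoxifen 5 times. Oxazolone (50 ul at 4% in acetone and olive oil) was put on the abdominal skin, with lymph nodes collected 3 or 7 days later, and vehicle mice received the solvent alone. Each combination of label and treatment gave 1 library of cells kept by CD45 beads (the CD45 fraction) and 1 of cells not kept (the CD31 fraction), 12 libraries in all. The labels do not say how many mice went into a library. With 1 library per label, treatment and fraction, no combination has a replicate, and the 2 libraries of a time point in a fraction differ in label. The intervals below (95%, exact Poisson for levels and Clopper-Pearson for shares) cover counting error only.

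Libraries held 36724887 to 76187731 UMIs, and 89054 cells were kept after filters on depth and doublets, with median depths of 3367 to 6354 UMIs in the 12 libraries before doublet removal. No 2 libraries shared more than 31 cell barcodes. Atg12, the targeted gene, was at 52.7, 46.1 and 51.4 CPM in blood endothelial-like cells labelled Cre-negative (vehicle, day 3, day 7) and at 74.2, 60.1 and 64.2 CPM in those labelled Cre-positive, so it was not lower with the label. Reads of the 3-prime end need not cover a deleted part, and the label is used below only as a label. The CD45 fraction also held stromal clusters.

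The members lie on 4 chromosomes of GRCm38 and are all protein coding. Mybl1 (ENSMUSG00000025912) is at chr1:9667415-9700209 and Rgs13 (ENSMUSG00000051079) at chr1:144138654-144177372, both on the minus strand. Mef2b (ENSMUSG00000079033) is at chr8:70139711-70167488 on the plus strand and overlaps Borcs8 on the same strand, so UMIs of this pair may be shared between them. S1pr2 (ENSMUSG00000043895) is at chr9:20962361-20976781 on the minus strand. Bcl6 (ENSMUSG00000022508) is at chr16:23965052-23988852 on the minus strand, with Gm37419 on the opposite strand inside its span, and Gcsam (ENSMUSG00000022659) is at chr16:45610380-45622867 on the plus strand.

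The stretches before the starts of 4 members whose B cell UMIs, pooled over libraries, lay mostly in 1 small cluster, and of Bcl6, whose UMIs did not, are shown to let a reader compare what the promoters share. They come from RefSeq on GRCm38.p6 for 5 of the 6 members, with no entry matched for Mybl1, and run 5′ to 3′ up to the transcription start (for Gcsam, up to the first annotated exon). Capitals mark 4 motifs searched on both strands: the octamer ATGCAAAT bound by Oct factors, CAGGTG bound by E proteins, the MYB core TAACNG, and TTCNNNGAA, the core shared by STAT and BCL6 sites. The MEF2 motif was also searched and lies in none of them.
Rgs13, chr1:144177373-144177622, minus strand: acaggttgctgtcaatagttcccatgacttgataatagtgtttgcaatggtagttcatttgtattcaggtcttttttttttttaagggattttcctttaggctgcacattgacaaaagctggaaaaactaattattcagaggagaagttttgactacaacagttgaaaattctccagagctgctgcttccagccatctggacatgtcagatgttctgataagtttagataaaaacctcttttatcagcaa
Mef2b, chr8:70152511-70152760, plus strand: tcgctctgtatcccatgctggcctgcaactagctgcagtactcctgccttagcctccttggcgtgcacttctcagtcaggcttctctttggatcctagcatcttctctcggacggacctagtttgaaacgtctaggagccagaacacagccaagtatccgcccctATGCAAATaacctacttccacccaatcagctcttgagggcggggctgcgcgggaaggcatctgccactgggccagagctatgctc
S1pr2, chr9:20976794-20977043, minus strand: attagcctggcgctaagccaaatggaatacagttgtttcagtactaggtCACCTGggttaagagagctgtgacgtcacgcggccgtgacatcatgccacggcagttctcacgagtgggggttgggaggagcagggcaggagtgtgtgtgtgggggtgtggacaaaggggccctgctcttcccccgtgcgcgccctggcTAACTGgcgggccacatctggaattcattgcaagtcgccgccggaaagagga
Gcsam, chr16:45610190-45610379, plus strand: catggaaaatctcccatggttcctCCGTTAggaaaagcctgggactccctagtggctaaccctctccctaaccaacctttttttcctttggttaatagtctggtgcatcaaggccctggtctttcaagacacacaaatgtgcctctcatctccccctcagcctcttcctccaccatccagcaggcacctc
Bcl6, start within the gene, chr16:23981284-23981533, minus strand: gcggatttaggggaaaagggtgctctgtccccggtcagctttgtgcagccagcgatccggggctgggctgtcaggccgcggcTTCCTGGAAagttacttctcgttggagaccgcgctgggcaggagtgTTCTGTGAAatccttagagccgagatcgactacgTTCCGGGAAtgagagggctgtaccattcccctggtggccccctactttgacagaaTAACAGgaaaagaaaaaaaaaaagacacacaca
The Mef2b stretch, like that of Bcl6 shown, lies inside the gene span given above. Mef2b holds 1 octamer, a motif found in 1.60% of 32851 mouse promoters of the same length (250 bases). S1pr2 and Gcsam each hold 1 MYB core, found in 19.8% of promoters of 250 bases (the Gcsam stretch has 190, a length for which no share was counted), and S1pr2 holds 1 CAGGTG, found in 17.2%. The Bcl6 start within the gene holds 3 copies of TTCNNNGAA, of which at least 1 copy is found in 7.02% of promoters, and 1 MYB core. The stretch before the other Bcl6 start (chr16:23988853-23989102, not shown) holds 1 copy and no MYB core. Rgs13 holds none of the 5 motifs. A match is a description of the letters and not a bound site.

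Over the 6 CD45 libraries together, most UMIs of 5 of the 6 members in B-like cells came from 1 small cluster, and 2 libraries gave most of its cells. Clustering of the CD45 fraction, run with the 6 members left out, gave 16294 B-like cells, of which 494 (3.03%) formed a germinal centre B-like cluster. Among its leading genes was Nuggc, a nuclear GTPase of germinal centre B cells, at 82.7 CPM against 1.11 CPM in other B-like cells. Of 8 germinal centre markers that are no members, 7 were at least 2-fold higher in it and Lmo2 was lower (log2 difference -1.56). Of the wider list of 20 other germinal centre B cell genes, which holds these 8, 11 were at least 2-fold higher and 3 lower: Lmo2, Cd83 (log2 difference -1.48), an activation marker, and Myc (-1.38), a driver of cell growth. These differences formed the cluster and are no test.

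Pooled over libraries, the cluster held 9.88% of all B-like UMIs but 98.3% of those of Gcsam, 90.8% of those of S1pr2, 88.2% of those of Mybl1, 68.2% of those of Rgs13 and 57.1% of those of Mef2b. These shares are carried by vehicle labelled Cre-negative and day 7 labelled Cre-positive, and the share per library varied widely. For Mybl1 it was 89.9% and 86.5%, 43.3% and 37.9%, and 66.7% and 91.1% (vehicle, day 3 and day 7, the Cre-negative label first). Some of these shares rest on few UMIs: 13 of 30 and 11 of 29 at day 3, and 8 of 12 at day 7 labelled Cre-negative. For Mef2b it ran from 6.04% at day 3 labelled Cre-negative to 76.9% at day 7 labelled Cre-positive, and for Rgs13 from 17.4% to 77.4% in the same libraries. For S1pr2 it was 20% at day 3 and at day 7 labelled Cre-negative (2 of 10 and 1 of 5 UMIs). It was 50% to 94.6% in the other 4, the lowest from 3 of 6 UMIs at day 3 labelled Cre-positive. At both day 3 libraries and day 7 labelled Cre-negative most UMIs of Mef2b and Rgs13 thus lay outside the cluster.

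Bcl6 had 10.9% of its pooled B-like UMIs in the cluster, but this share also hid differences between libraries. At day 7 labelled Cre-positive the cluster held 33.1% of Bcl6 UMIs against 21.97% of all UMIs, and at vehicle labelled Cre-negative 20.1% against 16.5%. At day 3 it held 0.169% against 2.22% and 0.835% against 4.96%. Most Bcl6 UMIs lay outside the cluster in every library. A Bcl6 UMI was found in 54.7% of the cluster's cells (50.1 to 59.1) and in 23.7% of other B-like cells (23.1 to 24.4). By detection, 63.8% of the 494 cells had a UMI of Mybl1 (59.4 to 68.0) against 0.753% of the 15800 other B-like cells (0.624 to 0.901), and 50.2% had one of Gcsam (45.7 to 54.7) against 0.0886% (0.0485 to 0.149). Cells of the cluster were deeper, with library medians of 2790 to 14894 UMIs against 2505 to 4274 in other B-like cells.

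**Figure D1:**
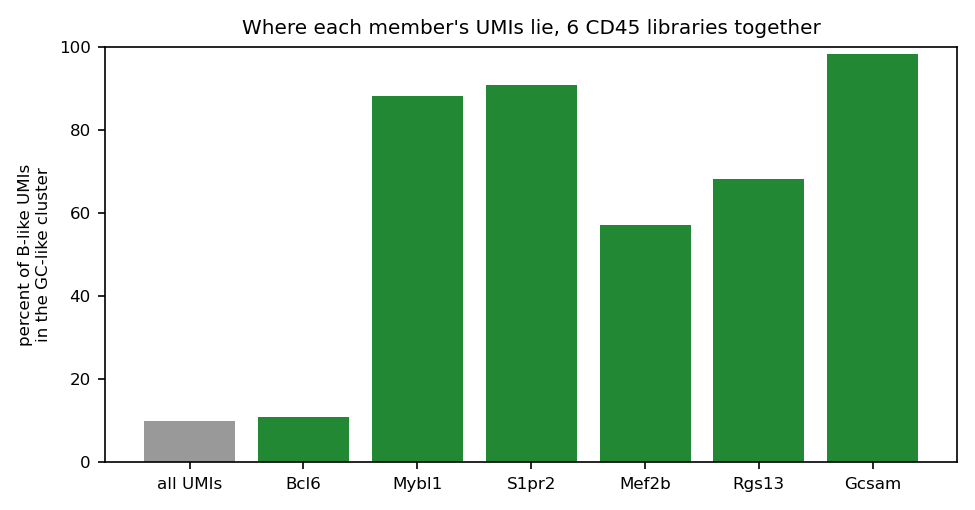
Bars show the percent of each gene's UMIs in B-like cells, pooled over the 6 CD45 libraries, that lay in the germinal centre B-like cluster, with all UMIs in grey. Gcsam stands at 98.3% and Bcl6 at 10.9%, against 9.88% for all UMIs.

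In the lists that describe this state, all 12 cell cycle genes were at least 2-fold higher in the cluster than in other B-like cells (median log2 difference 5.72, against -0.04 over 12173 genes, of which 1380 were at least 2-fold higher and 1150 at least 2-fold lower). Gpr183, a receptor that draws B cells to the follicle edge, was lower (99.9 against 789 CPM), as was S1pr1, the receptor that drives exit from the node (27.4 against 144 CPM), and in all 5 of 10 genes of migration and confinement were at least 2-fold lower and none higher. Of 7 Bcl6 corepressors and partners none differed by 2-fold, with Ncor1 at 212 and 242 CPM. Among 6 genes of plasma cell exit, Jchain was higher (597 against 10.7 CPM), as was Mzb1 (817 against 296 CPM), and Irf4 was lower (41.8 against 166 CPM). Prdm1 passed 2-fold (11.1 against 4.67 CPM) through vehicle labelled Cre-negative, and without that library it was at 5.01 against 4.70 CPM. Of 18 relatives of the members, Myb, Mybl2, Rgs1 and Rgs10 were at least 2-fold higher and S1pr1 lower.

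The libraries differed widely in this cluster and in 5 of the members. Values are given in the order vehicle, day 3 and day 7, and within each pair the Cre-negative label comes first. The cluster took 5.74% and 0.921%, 0.703% and 1.09%, and 0.291% and 7.85% of B-like cells, from 190 and 18, 20 and 27, and 8 and 231 cells. Vehicle labelled Cre-negative and day 7 labelled Cre-positive were high and the other 4 low, and the pairs at vehicle and day 7 differed in opposite directions while the pair at day 3 had overlapping intervals.

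Mybl1 in B-like cells was at 38.3 and 11.4, 3.02 and 2.43, and 1.60 and 56.3 CPM. The same 2 libraries were highest, vehicle labelled Cre-positive came next, and the intervals of both day 3 libraries and day 7 labelled Cre-negative overlapped. In a sum over a class, fewer cells of a type and less RNA per cell cannot be told apart, so shares of cells are given too. Its share of cells with a UMI was 4.68% and 1.28%, 0.773% and 0.685%, and 0.254% and 7.07%. In free RNA of the CD45 libraries Mybl1 was at 0.482 to 16.05 CPM, and the part of free RNA in the lower levels was not tested.

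Gcsam was at 23.6 and 3.72, 0 and 0.167, and 0.936 and 38.0 CPM. At day 3, 0 of 2847 and 2 of 2482 B-like cells had a UMI. A count of 0 allows up to 3 UMIs in that library, or 0.302 CPM, so Gcsam was at least 78.0-fold lower there than at vehicle with the same label. In the CD31 fraction the same comparison, also with 0 UMIs, gives at least 4.72-fold. S1pr2 was at 13.8 and 2.82, 1.01 and 0.502, and 0.669 and 24.1 CPM. Gcsam and S1pr2 placed the libraries in the same top 3 as Mybl1.

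Mef2b was at 43.7 and 23.96, 18.3 and 16.98, and 15.2 and 61.9 CPM. Outside the cluster Mef2b was at 12.0 to 18.3 CPM in the 6 libraries, near the 8.19 to 29.5 CPM of free RNA (barcodes of up to 100 UMIs). Mef2b was detected in 5.25% of B-like cells outside the cluster (4.90 to 5.61) and in 5.69% of T-like cells (5.30 to 6.10), whose library medians were 4188 to 7271 UMIs. By level, T-like cells held it at 7.05 to 11.1 CPM, below the B-like cells outside the cluster in each library, so detection and level gave different orders. The part of free RNA and of depth in these values was not tested.

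Rgs13 followed a different order, at 39.2 and 35.5, 2.32 and 9.04, and 10.3 and 44.8 CPM. Vehicle labelled Cre-positive stood with the 2 highest libraries although only 18 of its cells were in the cluster. Those 18 cells carried Rgs13 at 677 CPM (586 to 777), and the 8 at day 7 labelled Cre-negative at 692 (460 to 999.8), against 161 (144 to 179) and 158 (144 to 173) in the 2 libraries with most cluster cells. A few cells held many of its UMIs where the cluster was small: 1 cell held 42 of 277 at vehicle labelled Cre-positive and 1 held 40 of 108 (37.0%) at day 3 labelled Cre-positive. Rgs13 in B-like cells outside the cluster was at 15.2 and 10.4, 1.96 and 5.55, and 6.59 and 12.97 CPM, beside 11.2 and 10.2, 1.62 and 1.03, and 3.86 and 5.599 CPM in free RNA.

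Bcl6 was at 76.7 and 82.6, 119.5 and 130.3, and 65.0 and 90.8 CPM, both day 3 libraries lying above the other 4. The same held outside the cluster, at 73.3 and 81.8, 122 and 136, and 64.9 and 77.9 CPM. It held again in the 3 largest B-like clusters taken apart, whose mix differed between libraries: cluster 0 had 122 and 131 CPM at day 3 and 63.9 to 75.4 elsewhere, cluster 1 had 156 and 142 against 76.9 to 97.9, and cluster 5 had 77.0 and 88.8 against 43.3 to 73.7. Cluster 1 held 63.7% of B-like cells at day 3 labelled Cre-positive and 51.4% at vehicle labelled Cre-positive, cluster 5 was the largest at day 7 labelled Cre-negative (37.2%), and cluster 0 in the other 3 libraries.

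**Figure D2:**
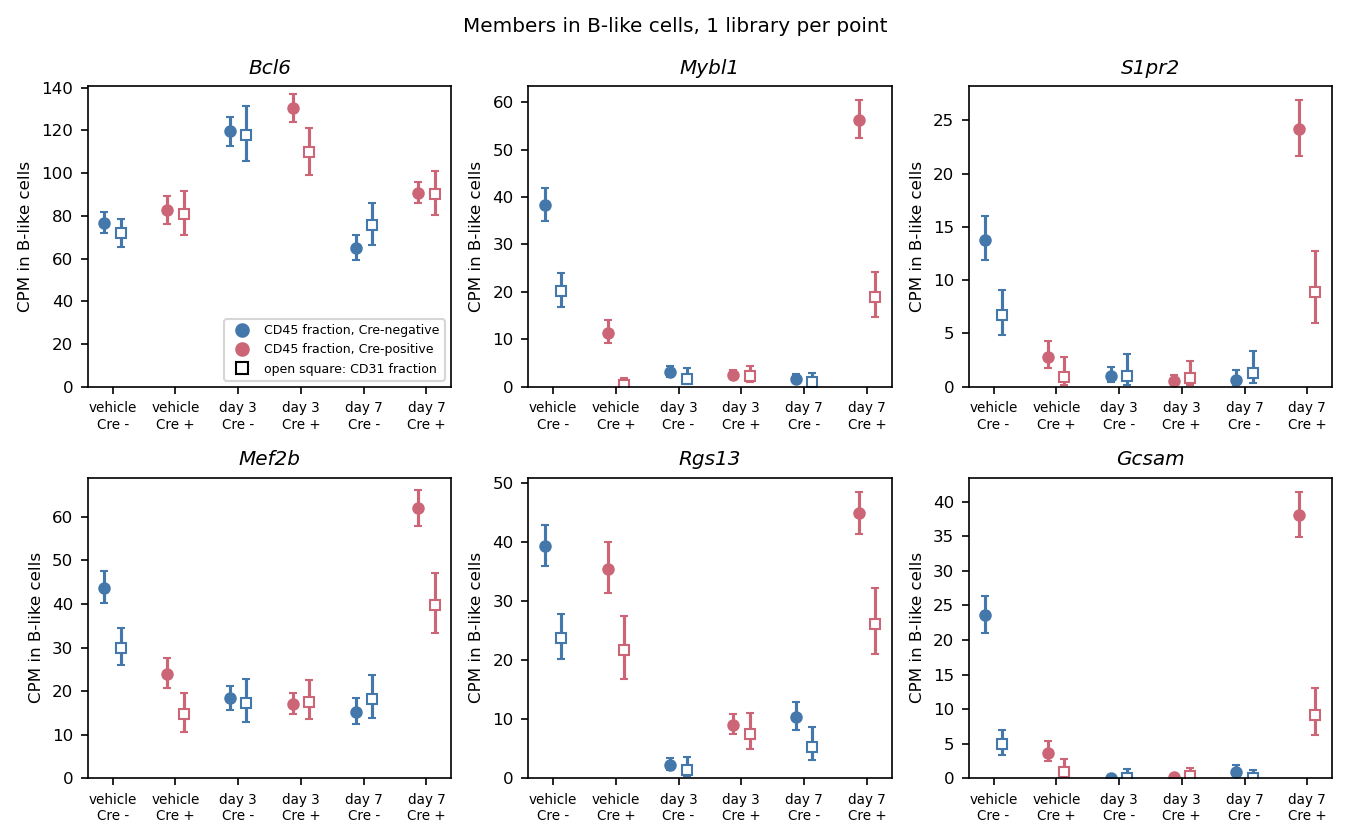
Each panel shows 1 member in B-like cells, with the level in CPM on a linear axis from 0 and 1 point per library; bars are 95% Poisson intervals, filled circles the CD45 and open squares the CD31 fraction (without its mixed plasma and germinal centre cluster), and colour the Cre label. In the CD45 fraction Bcl6 is highest at day 3, at 119.5 and 130.3 CPM, and the other members are highest at day 7 labelled Cre-positive.

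The CD31 fraction, whose 6018 B-like cells were clustered separately, gave a second reading from the same combinations of label and treatment. These cells are not the same population: they leave out a cluster of 420 cells that mixed plasma cell and germinal centre genes, with Mybl1 at 69.9, 14.8 and 79.96 CPM in its 3 libraries of at least 50 cells (vehicle labelled Cre-negative, day 3 and day 7 labelled Cre-positive), while B-like cells of the CD45 fraction include the germinal centre B-like cluster. Bcl6 there was at 71.9 and 80.9, 118 and 109.8, and 75.7 and 90.1 CPM, again highest in both day 3 libraries. Mybl1 was at 20.2 and 0.319, 1.73 and 2.23, and 0.996 and 19.03 CPM, and Gcsam at 4.90 and 0.956, 0 and 0.279, and 0 and 9.22 CPM. Both were highest in the same 2 libraries as in the CD45 fraction. S1pr2 was at 6.73 and 0.956, 1.04 and 0.838, and 1.33 and 8.92 CPM, Mef2b at 29.99 and 14.7, 17.3 and 17.6, and 18.3 and 39.8 CPM, and Rgs13 at 23.7 and 21.7, 1.38 and 7.54, and 5.31 and 26.2 CPM. As in the CD45 fraction, Rgs13 was also high at vehicle labelled Cre-positive, where Mybl1, S1pr2, Mef2b and Gcsam were not. The labels do not say whether the 2 fractions of a combination came from the same mice.

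The fit across all genes asked whether members differed by treatment or label beyond the spread left after both terms. With 1 library per combination, that spread is how far the label difference varied between treatments. No spread between replicate libraries was measured. In B-like cells of the CD45 fraction edgeR's quasi-likelihood test, with label and treatment as terms over 6 libraries (2 residual degrees of freedom), called 0 of 12362 genes at day 3 (background 0%), at day 7 (0%) and by label (0%), with 549, 179 and 703 genes at an unadjusted p under 0.05. DESeq2 called 25, 0 and 14. With no gene called, nothing is read from this fit about the members, and no p is given for Mybl1. Bcl6 was higher at day 3 by a log2 change of 0.66 (SE 0.16), higher in 2 of 2 libraries, with an edgeR adjusted p of 0.959 (unadjusted 0.0065).

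Without the germinal centre B-like cluster the log2 change of Bcl6 at day 3 was 0.73 (SE 0.11) and its adjusted p 0.0592, when 20 of 12041 genes were called. Rgs13 was lower at day 3 by a log2 change of -3.05 (SE 0.61, edgeR adjusted p 0.883), a value that ran from -4.16 without vehicle labelled Cre-positive to -1.90 without vehicle labelled Cre-negative. The edgeR adjusted p of Mef2b, S1pr2 and Gcsam at day 3 was 0.991 for each. Leaving out 1 library changed some of these calls. Such a fit leaves 1 library in a treatment group and fits that library exactly, so no p is given for it. With 1 library left out in turn, the log2 change at day 3 ran from 0.54 to 0.79 for Bcl6 and from -1.74 to 0.14 for Mef2b. It ran from -6.08 to -0.74 for S1pr2 and from -12.3 to -4.29 for Gcsam. These members were counted in the cells that led to the choice, and nothing is read from their changes.

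UMIs of at least 2 members were found in the same cells, also outside the B-like classes. Pooled over the CD45 libraries, at least 2 members had a UMI in 78.3% of cells of the germinal centre B-like cluster and 2.24% of other B-like cells. It was 2.06% of T-like, 2.26% of NK-like, 7.81% of macrophage and monocyte-like, 8.78% of stromal and 14.1% of dendritic-like cells. Single members were frequent in some of these classes. Bcl6 was found in 22.5% and S1pr2 in 18.95% of stromal cells, and Bcl6 in 33.1% and Gcsam in 16.7% of dendritic-like cells. The share expected if members were detected independently was not computed, so the shares outside the B-like classes are not read as joint expression. Depth differed between these classes, and its part was not tested. Per library, the share of B-like cells with a UMI of at least 2 members was 6.85% and 2.46%, 2.18% and 3.91%, and 0.799% and 9.68%. With at least 3 members it was 4.47% and 0.870%, 0.0702% and 0.363%, and 0.145% and 6.90%, which separates the 2 high libraries further from the rest. Over the 6 libraries 77.1% of the 262 cells with Gcsam also had Mybl1 (71.5 to 82.0), against 1.45% of the 16032 cells without it (1.27 to 1.64). Most of these 262 cells came from 2 libraries. The share was 75% of 100 cells at vehicle labelled Cre-negative (against 2.49% without Gcsam), 78.6% of 145 at day 7 labelled Cre-positive (against 3.36%) and 9 of 10 at vehicle labelled Cre-positive, and the other 3 libraries had 0, 2 and 5 cells with Gcsam.

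Deep cells show more genes, so each cell was also thinned to 2000 UMIs, leaving out 116 to 636 shallower cells per library. After thinning, 28.8% of the 104 cells with Gcsam had Mybl1 (20.4 to 38.6) against 1.12% of cells without (0.958 to 1.31). Of the 194 cells with Mybl1, 24.2% had Mef2b (18.4 to 30.9) against 3.61% of cells without (3.31 to 3.92). Mybl1, Gcsam and Mef2b were all highest in the same 2 libraries, so these pooled values mix differences between libraries with those between cells. Pooled values for Bcl6 lay closer together. It was found in 23.7% of cells with Mybl1 (17.9 to 30.3) against 15.7% of cells without (15.1 to 16.3), and in 25.96% of cells with Gcsam (17.9 to 35.5) against 15.7% (15.1 to 16.3). For Mybl1 the intervals overlapped within each library, as at vehicle labelled Cre-negative (24.6% against 14.4%) and day 7 labelled Cre-positive (22.2% against 12.8%). With Mef2b the pooled shares were equal: among cells with Bcl6, 3.88% had Mef2b (3.13 to 4.75) and of cells without 3.88% had it (3.55 to 4.23), whereas unthinned values were 10.5% and 6.06%. Bcl6 and Mef2b were detected most in different libraries, so the pooled value mixes them. Per library, thinned, Mef2b was in 5.90% of cells with Bcl6 against 4.92% without at vehicle labelled Cre-negative and in 6.59% against 5.49% at day 7 labelled Cre-positive, and the intervals overlapped in each of the 6 libraries. The share with at least 2 members, thinned, was 3.60% and 0.924%, 0.687% and 1.28%, and 0.378% and 5.24%, with the same 2 libraries highest.

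Cells with at least 2 members numbered 741, against 11285 with none, and genes with a large ratio between them included Ube2c, H1fx, Mki67, Cenpf, Pclaf, Birc5, Nuggc, Hmmr and Cdca3. Mki67, a marker of dividing cells, was at 338 against 4.75 CPM, and Nuggc at 74.4 against 0.641 CPM. The cells were picked by the members, Mybl1 included, so these ratios are a description and no test. Of the 741 cells, 387 lay in the germinal centre B-like cluster. By library, 227 came from vehicle labelled Cre-negative and 285 from day 7 labelled Cre-positive. The part of depth in this choice of cells was not tested.

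The libraries with few cluster cells varied in how many members those cells carried. At day 3, 12 of 20 and 12 of 27 had no UMI of any member, against 12 of 190 and 2 of 18 at vehicle and 3 of 8 and 9 of 231 at day 7. Median depths of cluster cells were 8298 and 10966, 9076 and 14894, and 2790 and 10131 UMIs, and the part of depth in these counts was not tested. Cell cycle genes summed to 1342 and 1898 CPM there, against 2001 to 2559 in the other 4 libraries, while the 8 germinal centre markers summed to 354 and 398 CPM against 1697 to 2100. Other B-like cells of the same day 3 libraries had these markers at 331 CPM in each, within the interval of the cluster's 354 CPM (279 to 441) and below that of its 398 CPM (349 to 452). By these markers the day 3 cells of the cluster were thus at or near the level of other B-like cells, and the name of the cluster does not describe them. Within the cluster Bcl6 was at 9.07 (1.10 to 32.8) and 21.9 CPM (11.7 to 37.5) at day 3, below the 93.7 and 137 CPM of the 2 large libraries.

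**Figure D3:**
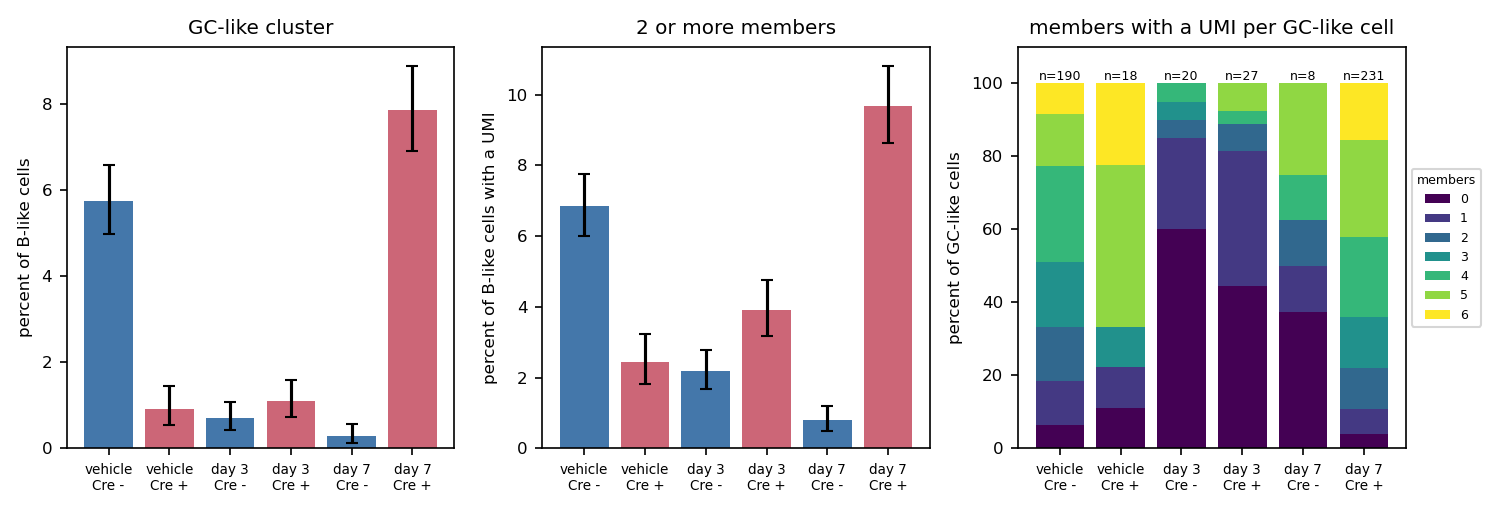
The left panel shows the percent of B-like cells in the germinal centre B-like cluster, the middle one the percent with a UMI of at least 2 members (both with 95% Clopper-Pearson intervals), and the right one the percent of cluster cells with 0 to 6 members, for the 6 CD45 libraries. Cells without any member are the largest class at both day 3 libraries, 12 of 20 and 12 of 27, and at day 7 labelled Cre-negative, 3 of 8.

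Plasma cell-like cells were also unevenly spread, 142 and 6, 31 and 9, and 3 and 152 cells, with the same 2 libraries highest. In these cells Bcl6 was at 1.53 CPM at vehicle labelled Cre-negative and 3.46 CPM at day 7 labelled Cre-positive, beside 2.64 to 11.7 CPM in plasmacytoid dendritic-like cells and 28.4 CPM or more in every other class with 50 cells in a CD45 library.

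**Figure D4:**
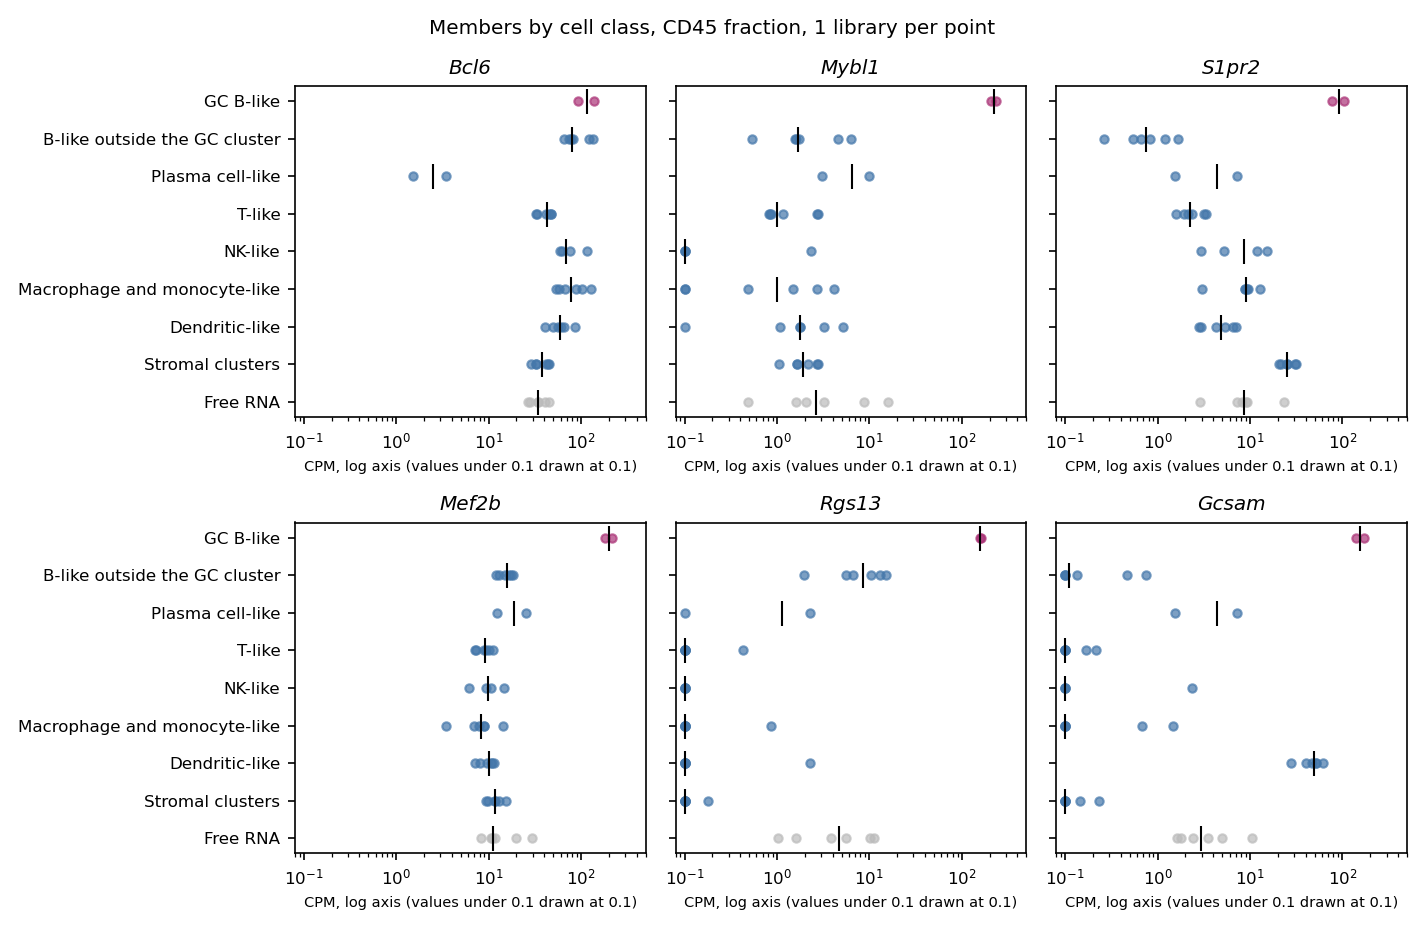
Each panel shows 1 member by cell class of the CD45 fraction, with CPM on a log axis, 1 point per library with at least 50 cells of the class, and the median as a black bar; free RNA is grey. Gcsam stands out in dendritic-like and S1pr2 in stromal clusters beside the germinal centre B-like cluster, and Bcl6 is spread over most classes.

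Outside B cells each member had its own pattern. Bcl6 was at 53.7 to 129 CPM in macrophage and monocyte-like, 40.4 to 86.7 in dendritic-like, 58.5 to 115.5 in NK-like and 32.8 to 47.6 CPM in T-like cells, beside 26.5 to 45.2 CPM in free RNA. The ranges of the first 3 classes overlapped each other and that of B-like cells. Among 12935 T-like cells, the 180 with both Cxcr5 and Pdcd1, receptors of follicular helper T cells, had a Bcl6 UMI in 54.4% (46.9 to 61.9), against 17.2% (16.5 to 17.9) of those with neither. Median depths were 13637 and 4986 UMIs, and the part of depth in this difference was not tested.

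Gcsam was high in 1 dendritic-like cluster led by Xcr1 and Clec9a, genes of type 1 conventional dendritic cells. Gcsam in that cluster was at 119.7 and 161, 129.5 and 113, and 107 and 154 CPM, from 24 to 53 cells per library, and the intervals of all 6 libraries overlapped. In the other dendritic-like cluster, led by Ccl22 and Fscn1, Gcsam had 0 to 2 UMIs per library, at 0 to 1.41 CPM, and free RNA held it at 1.62 to 10.5 CPM. The level in the Xcr1 cluster did not follow that in B-like cells: at day 3 labelled Cre-negative it was 129.5 CPM where B-like cells had 0 UMIs.

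S1pr2 was at 30.5 and 21.7, 20.8 and 25.1, and 25.3 and 31.3 CPM in stromal clusters of the CD45 fraction (1133 to 1929 cells per library), beside 9.12 and 8.19, 7.29 and 9.25, and 2.89 and 23.5 CPM in free RNA. It was above free RNA in 6 of 6 libraries and highest in clusters 10 and 7, at 29.8 to 47.7 and 22.4 to 42.3 CPM, led by Fndc1 and Mgp. Rgs13 was rarely detected outside B-like cells: 2 of 12935 T-like and 2 of 1201 dendritic-like cells had a UMI.

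Mybl1 was also read in T-like cells, at 0.850 and 0.821, 2.69 and 2.80, and 0.863 and 1.15 CPM, both day 3 libraries lying above the other 4. These levels lay within the 0.482 to 16.05 CPM of free RNA in the CD45 libraries, whose part was not tested. The log2 change at day 3 in T-like cells was 1.71 (SE 0.36, edgeR adjusted p 0.0151, higher in 2 of 2 libraries). Mybl1 was thus 1 of 4 members tested that was called, where 20.2% of 13022 genes were. In the same comparison 12 of 12 cell cycle genes rose, with a median log2 change of 2.11 against -0.22 for relatives of the members. Bcl6 in T-like cells had a log2 change of -0.22 at day 3 (SE 0.11, edgeR adjusted p 0.198), which turned positive without the cycling cluster described next.

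The cycling cluster of T-like cells, led by Rrm2 and Birc5, took 3.81% and 2.23%, 16.4% and 17.2%, and 2.15% and 4.13% of them. Mybl1 was at 3.89 and 5.51, 5.11 and 4.99, and 6.27 and 5.84 CPM within it, and at 0 to 0.686 CPM outside it. Of the 59 Mybl1 UMIs at day 3 labelled Cre-negative all 59 lay in the cluster. Within the cluster the day 3 libraries were not the highest. The call at day 3 ended with doublets kept (log2 change 0.99, edgeR adjusted p 0.146) and with DESeq2 (1.70, no adjusted p given). It also ended without either vehicle or either day 3 library. With 1 library left out in turn the log2 change ran from 1.62 to 1.78. Without the cycling cluster the gene was too low to test.

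Blood endothelial-like cells of the CD31 fraction also had the highest levels in both day 3 libraries. In these cells Mybl1 was at 3.60 and 3.80, 8.83 and 8.27, and 2.49 and 5.15 CPM. Free RNA of the CD31 libraries held it at 1.19 to 7.62 CPM, and the part of free RNA was not tested. The log2 change of Mybl1 at day 3 was 1.28 (SE 0.29, edgeR adjusted p 0.0932), with 0 of 15003 genes called (0%), 3618 at an unadjusted p under 0.05 and 811 called by DESeq2, which called Mybl1 (adjusted p 0.0403). Mybl1 was also called by edgeR without a filter on low counts (adjusted p 0.0301). With 1 library left out in turn its log2 change at day 3 ran from 0.97 to 1.58. Of their Mybl1 UMIs 23 of 73 and 4 of 73, 122 of 180 and 139 of 233, and 9 of 54 and 35 of 85 lay in the cycling cluster, most of them only at day 3. This cluster took 2.23% and 0.736%, 7.38% and 10.1%, and 0.626% and 2.42% of cells and held Mybl1 at 13.1 to 49.1 CPM. Without it Mybl1 was at 2.57 and 3.65, 3.36 and 3.98, and 2.09 and 3.17 CPM, and the log2 change at day 3 was 0.32 (SE 0.23, edgeR adjusted p 0.470).

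**Figure D5:**
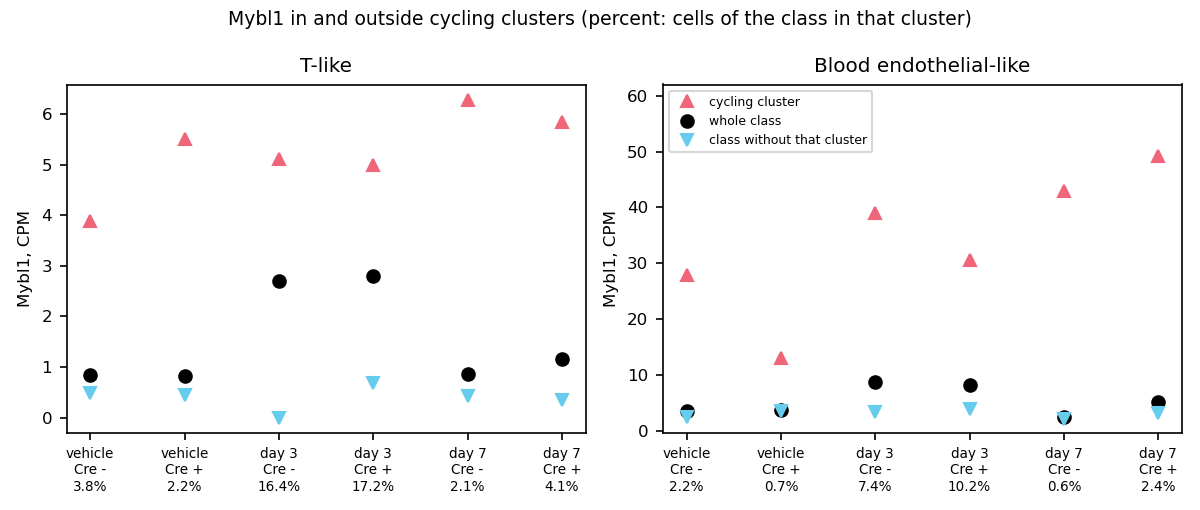
Mybl1 in CPM, by library, for T-like cells of the CD45 fraction (left) and blood endothelial-like cells of the CD31 fraction (right): the cycling cluster (red), the whole class (black) and the class without that cluster (blue), with the percent of cells in the cluster under each library. The whole class is highest at day 3, where the cycling cluster took 16.4% and 17.2% of T-like cells.

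Other treatment and label comparisons in these 2 classes called no member. T-like cells had 0 of 13022 genes called at day 7 (0%) and 1 by label (0.00768%), and blood endothelial-like cells 0 of 15003 at day 7 (0%) and 1 by label (0.00667%). S1pr2, Mef2b, Bcl6 and Mybl1 were tested in both classes, while Rgs13 and Gcsam were too low to test.

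Across 93 sums of a class and library (23 classes, 12 libraries, at least 50 cells each), the genes whose log2 level followed each member most closely by Pearson r were a description of where it is read, since the sums share libraries and depth. For Mybl1 they included Hbb-bh1 (r 0.78) and Ccdc175 (r 0.77), for Mef2b Hbb-bh1 (r 0.87) and Nuggc (r 0.83), and for Rgs13 Gm2447 (r 0.93). For Gcsam they were Snx22, Gatm and Xcr1, genes of the dendritic-like cluster above, for S1pr2 Ptgr1, Pnp and Tpi1, and for Bcl6 Tmem131l (r 0.74), Runx1 and Gpatch2l. Among members, Mybl1 followed Mef2b (r 0.75) and Rgs13 (r 0.68) and not Bcl6 (r -0.04).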

How the data were processed

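Single-cell 3′ libraries of mouse lymph node were analysed from the deposited UMI counts, whole numbers per gene and barcode made with Cell Ranger 7.0.1 on mm10, per the submitters' processing notes (the file headers name Cell Ranger 4). All barcodes were listed. The 6 members and the gene lists were chosen with earlier results of these data known. Barcodes were taken as cells from 1000 UMIs and 500 genes upward where mitochondrial UMIs stayed within 10% (5984 to 11636 per library). Doublets were removed as the highest Scrublet scores (scanpy 1.11.5), at 0.8% per 1000 barcodes, because the automatic threshold called almost none in some libraries. Removed barcodes had a higher median depth than those kept, with exceptions in the CD31 fraction. These were day 3 labelled Cre-positive (2203 against 3433 UMIs) and vehicle labelled Cre-negative (3932 against 4325). Whether the barcodes removed there were doublets was not tested. Each fraction was clustered on 2000 variable genes without the members (30 components, 20 neighbours, Leiden resolution 1, leidenalg 0.10.2), and classes were named from marker lists.

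Counts were summed per class and library and tested with edgeR 4.0.16 in R 4.3.3 (quasi-likelihood, label and treatment as terms, Benjamini-Hochberg over all genes tested, threshold 0.05). With 1 library per combination, p-values measure the spread left after these terms, and labels were not tested at single time points. DESeq2 1.42.0, another scaling, no filter on low counts, other cell filters and leaving out each library were tried as alternatives, and fits without a cluster or in the other fraction were added after seeing the data. Named genes were the members, genes called from the lists and otherwise the 2 of highest level, and the 3 genes most like each member; genes named beside a small count, such as Irf4 and S1pr1, were chosen after their values were seen. Free RNA was read from barcodes of 1 to 100 UMIs. A gene that these rules select is not reported here.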

Additional observations from a re-analysis of the deposited data

Results flagged for a closer look

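In B-like cells of the CD45 fraction 4 members had label differences of opposite direction at vehicle and day 7 with counting intervals apart from 0 at both, which drew attention because each side rests on 1 library per label; the difference was not tested. The log2 ratio of the library labelled Cre-positive to the one labelled Cre-negative was -1.75 at vehicle and 5.13 at day 7 for Mybl1, a difference of 6.88. For S1pr2 it was -2.29 and 5.17, a difference of 7.46. For Mef2b it was -0.87 and 2.02, a difference of 2.89. For Gcsam it was -2.67 and 5.34, a difference of 8.01. Rgs13 also differed in sign (-0.14 and 2.12), but its interval at vehicle (-0.36 to 0.07) included 0. The germinal centre B-like cluster moved the same way, from 5.74% and 0.921% of B-like cells at vehicle to 0.291% and 7.85% at day 7. Mybl1 in B cells led to the choice of the genes, so its place among the 4 was settled beforehand and is a description only. The other members were counted in the same cells, and their values are no independent support for it.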

How the results depend on the processing

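No paired analysis was possible because each group has 1 library and the labels give no shared replicate numbers. Genes called in B-like cells at day 3 were 0 in the reported fit, 25 with DESeq2, 5 without the filter on low counts, 20 without the germinal centre B-like cluster and 1 in the CD31 fraction; by label they were 0, 14, 1 and 1 with the first 3 of these. T-like cells had 2633 called at day 3 and 0 without the cycling cluster; at day 7 they had 0, 2 with DESeq2 and 11 without the filter, and by label 1, 156, 207 and, without the cycling cluster, 6. Blood endothelial-like cells had 0 at day 3, 811 with DESeq2, 990 without the filter and 175 with doublets kept, 1 at day 7 with DESeq2, and by label 1, 19 with DESeq2 and 7 without the filter. The 1 member called in T-like cells at day 3 was not called (0) with DESeq2, doublets kept or the cycling cluster left out, and 1 was called in endothelial cells at day 3 with DESeq2 or no filter. The cause of these changes was not tested.

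Leaving out 1 library gave 0 to 195 genes called at day 3, 0 to 64 at day 7 and 0 to 165 by label in B-like cells, with 0 to 6, 0 to 4 and 0 to 3 members. These member counts include Mybl1, which led to the choice of the genes, and are a description only. Each fit without 1 library leaves 1 library in a treatment group, so nothing is read from these counts. For T-like cells the ranges were 713 to 3433 (0 to 1 members), 0 to 13 and 2 to 53, and for endothelial cells 0 to 1974 (0 to 1 members), 0 to 152 and 0 to 72. In B-like cells the fits without day 7 labelled Cre-negative called 125, 64 and 67 genes and those without day 7 labelled Cre-positive 195, 54 and 165.

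The log2 change of Mef2b in B-like cells at day 3 turned to 0.19 without the germinal centre B-like cluster and ran from -1.74 to 0.14 with 1 library left out. That of Bcl6 at day 7 turned to 0.0017 without the filter and 0.17 in the CD31 fraction and ran from -0.22 to 0.19, and that of Bcl6 in T-like cells at day 3 turned to 0.25 without the cycling cluster. Shares of B-like cells with at least 2 members, thinned to 2000 UMIs, were 3.60%, 0.924%, 0.687%, 1.28%, 0.378% and 5.24% (vehicle, day 3, day 7, Cre-negative first), and thinned to 1000 UMIs 1.45%, 0.665%, 0.141%, 0.322%, 0.0726% and 2.18%.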
